A study of Mus musculus with 12 samples.

Results

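The heterochromatin protein 1 (HP1) genes and the enzymes that write the histone marks around them were followed as a group of 10 genes, chosen by name: 3 HP1 genes, 5 H3K9 methyltransferase genes, the corepressor gene Trim28 and the H4K20 methyltransferase gene Kmt5c. The HP1 genes are Cbx1 (HP1β, ENSMUSG00000018666), Cbx3 (HP1γ, ENSMUSG00000029836) and Cbx5 (HP1α, ENSMUSG00000009575). The H3K9 enzymes are encoded by Suv39h1 (ENSMUSG00000039231), Suv39h2 (ENSMUSG00000026646), Setdb1 (ENSMUSG00000015697), Ehmt1 (GLP, ENSMUSG00000036893) and Ehmt2 (G9a, ENSMUSG00000013787). Trim28 (KAP1) is ENSMUSG00000005566 and Kmt5c (Suv420h2) is ENSMUSG00000059851. All 10 were found among the 37310 genes of the count table, and all 10 were among the 16630 genes that passed the filter on low counts. RNA was sequenced from lines derived from mouse embryonic fibroblasts (MEF). The knockout line (labelled R, called KO here) lacks HP1γ/Cbx3 per its label, and HPg is the line in which HP1γ was restored. Cells of both lines were left untreated or, when nearly confluent, received 100 nM of PMA (phorbol 12-myristate 13-acetate, an activator of protein kinase C) in DMSO for 30 min. Each of the 4 groups has 3 libraries, described by the submitters as biological triplicates. What the untreated cells received, and the construct and promoter that restored HP1γ, are not stated in the labels. Because each genotype is a single line, line and genotype cannot be told apart, and a p-value covers only how cultures of that line vary.

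HP1 proteins bind histone H3 methylated at lysine 9 through an N-terminal chromodomain and recruit partners through a C-terminal chromoshadow domain. SUV39H1 and SUV39H2 trimethylate H3K9 at pericentric repeats, SETDB1 does so where TRIM28 and KRAB zinc finger proteins bring it, and EHMT1 and EHMT2 form a dimer that mono- and dimethylates H3K9 in euchromatin. HP1 bound at pericentric chromatin brings in KMT5C, which di- and trimethylates histone H4 at lysine 20.

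The stretches before the starts of the 3 HP1 genes are shown first, because these genes encode near relatives yet differ in level. All 10 genes matched the RefSeq promoter table, which is on GRCm38.p6. Short motifs were searched on both strands in the 250 bases before each start: the CCAAT box by those letters, the GC box as GGGCGG, the TATA box as TATAAA, the E2F motif in its forms TTTGGCGC and TTTCGCGC, and the NRF1 motif. Printed is the longest run of that window outside annotated exons, 5′ to 3′ on the gene's strand, with matches in capitals.
Cbx3, chr6:51470432-51470529, plus strand: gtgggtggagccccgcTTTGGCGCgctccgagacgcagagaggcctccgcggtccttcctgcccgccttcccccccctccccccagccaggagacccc
Cbx1, chr11:96788885-96789126, plus strand: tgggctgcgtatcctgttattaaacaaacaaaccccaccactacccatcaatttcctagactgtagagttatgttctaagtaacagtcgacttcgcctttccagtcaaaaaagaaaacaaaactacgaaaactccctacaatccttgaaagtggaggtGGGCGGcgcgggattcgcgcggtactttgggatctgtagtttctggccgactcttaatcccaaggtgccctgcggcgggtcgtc
Cbx5, chr15:103239853-103240102, minus strand: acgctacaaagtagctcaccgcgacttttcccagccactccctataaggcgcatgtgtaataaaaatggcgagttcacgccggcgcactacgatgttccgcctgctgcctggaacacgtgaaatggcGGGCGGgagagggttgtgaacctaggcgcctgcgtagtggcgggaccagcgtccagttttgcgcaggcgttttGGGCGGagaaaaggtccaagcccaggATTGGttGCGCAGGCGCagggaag
The 250-base window of Cbx3 holds 1 match to TTTGGCGC, printed above, which 0.417% of all 32851 windows hold. It also holds 1 GC box, found in 32.7% of windows, outside the 98 bases printed. The Cbx1 window holds 1 GC box, inside the 242 bases printed. The 250 bases of Cbx5 hold 2 GC boxes, 1 CCAAT box read on the other strand as ATTGG (33.8% of windows) and 1 NRF1 motif (3.74% of windows), the last 2 separated by a pair of bases. No window of the 10 genes holds TATAAA, which 12.4% of all windows do. Their 250-base windows hold 11 to 29 CpG dinucleotides, against a median of 6 over all windows. Cbx3 has the most with 29, followed by Suv39h2 with 27, Ehmt1 with 26 and Cbx5 with 22. A match is a string of letters and was not tested as a binding site.

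Total counts per library ran from 111458145 to 159929347. Replicates of a group differed by far more than sampling noise, and library 2 of the untreated HPg group correlated least with its group. Of 11 fibroblast markers, 9 had at least 1 CPM (counts scaled to a common library size by TMM factors) in all 12 libraries, and Thy1 and Lum stayed under 1 CPM in all. Summed epithelial, endothelial, blood and muscle markers were at most 9.58 CPM in any library, against 9629 to 16520 CPM for the fibroblast list. Neural markers summed to 169.5 to 339.1 CPM, and 3 of these 4 genes were under 1 CPM in every library, with Tubb3 listed at 0. Whether that 0 stands for no RNA or for a loss in the counting was not tested. The 6 immediate early genes used to check the treatment, Fos and Egr1 among them, passed the test upward with PMA in both lines. In bulk RNA, fewer cells of a type and less RNA per cell cannot be told apart.

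Cbx3, the gene named in the knockout, had counts in every library, between 3564 and 6665. In the untreated HPg libraries it was at 37.1, 37.4 and 41.5 CPM. The untreated knockout libraries were at 35.5, 39.0 and 35.0 CPM, inside or just under that range. With PMA the HPg libraries read 43.1, 33.8 and 38.9 CPM and the knockout libraries 33.3, 26.9 and 35.2 CPM. The groups therefore overlapped both without and with PMA. The log2 fold change, knockout minus HPg, was -0.08 ± 0.129 (SE, n = 3 and 3; 95% interval -0.36 to 0.20) without PMA, with an adjusted p of 0.838. With PMA it was -0.28 ± 0.129 (interval -0.56 to -0.0014), adjusted p = 0.269. The total Cbx3 count thus does not check the genotype labels: which part of the gene is deleted is not stated in the labels, a count per gene does not separate its parts, and RNA says nothing of the protein. Of 13 annotated loci that match the coding transcript of Cbx3 at 90% identity or more over at least 300 bases, 6 are in the table, and none exceeded 36 counts in a library. Low counts at these loci do not show that Cbx3 kept all its reads. Reads that fit several loci may have been left out, which was not tested, so the level of Cbx3 beside other genes may be too low.

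Compared per kilobase of exon, the 10 genes fell into 4 steps. Cbx3 was knocked out in one line and restored by an undescribed construct in the other. Its counts and annotated length may therefore not be those of the unaltered gene. Cbx5, Trim28 and Ehmt2 stood highest, with means over the 12 libraries of 51.9, 51.2 and 47.8 CPM per kb and ranges of 44.0 to 59.2, 41.2 to 67.6 and 36.3 to 62.3, which overlap. These 3 lie at the 95.2 to 95.6 percentile of the genes measured. Cbx1 followed alone at 15.9 CPM per kb (14.2 to 19.4). Ehmt1 at 10.1 (7.44 to 12.5) touched Setdb1 at 6.98 (6.01 to 7.49), and Setdb1, Cbx3 at 6.07 (4.48 to 7.19) and Suv39h1 at 6.04 (4.90 to 7.64) did not differ beyond their spread. Suv39h2 at 2.62 (2.05 to 3.58) and Kmt5c at 2.40 (1.72 to 3.28) were lowest and overlapped each other, below every value of the rest. Each pair of related enzymes was therefore unequal in RNA: Suv39h1 above Suv39h2 and Ehmt2 above Ehmt1 in all 12 libraries. Setdb1 was the steadiest, with a coefficient of variation (SD over mean) of 5.52% over the 12 libraries, lower than in all but 0.21% of genes. The other members ran from 8.64% (Cbx5) to 19.2% (Kmt5c), all under the median of 23.2% over all genes. Length matters to this order: over the longest transcript in place of all exons, Cbx3 (12.4) stands above Setdb1 (8.47), Kmt5c (3.46) above Suv39h2 (2.67), and Trim28 (65.7) and Ehmt2 (65.2) above Cbx5 (53.0).

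**Figure D1:**
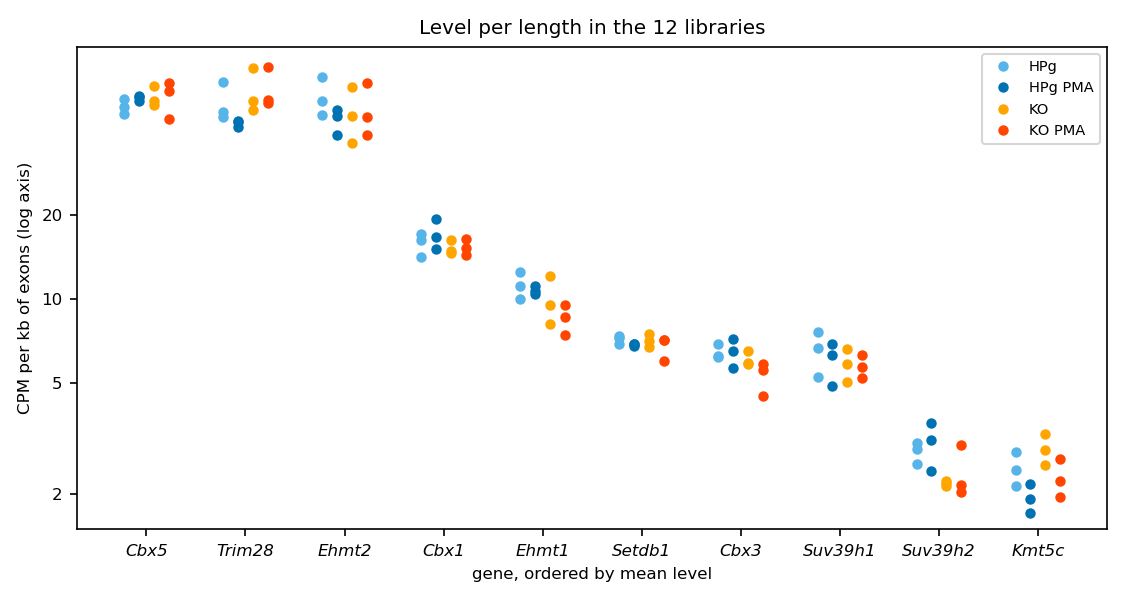
Level of each gene in CPM per kilobase of exon (log axis) in the 12 libraries, coloured by group, with genes ordered by their mean. Cbx5, Trim28 and Ehmt2 lie between 36.3 and 67.6, and Suv39h2 and Kmt5c between 1.72 and 3.58.

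Among the HP1 paralogs, Cbx5 made up most of the RNA counted per kb and Cbx3 least in every library. Since Cbx3 is the gene knocked out or restored, these shares need not be those of unaltered fibroblasts. Near-identical loci, of which 13 were found for Cbx3, 1 for Cbx1 and 0 for Cbx5, could also lower a count. Their part in the shares was not tested. Cbx5 held 68.7% ± 0.311 (SD, n = 3) of the summed CPM per kb of the 3 genes in untreated HPg cells and 71.3% ± 0.505 in untreated knockout cells. The Cbx5 shares of these groups did not overlap, 68.4 to 69.0% against 70.8 to 71.8%. For Cbx1 the untreated shares were 22.8, 22.8 and 21.1% in HPg and 20.8, 20.2 and 20.6% in the knockout line, also without overlap. With PMA both overlapped: Cbx5 held 66.8, 71.1 and 69.5% in HPg and 68.8, 73.8 and 72.6% in the knockout line, and Cbx1 24.2, 21.1 and 21.9% against 22.5, 20.3 and 20.2%. The Cbx3 shares were 8.22, 8.78 and 10.3% in untreated HPg and 8.44, 8.04 and 8.10% in untreated knockout cells, so these overlapped. With PMA the Cbx3 share was 8.99, 7.84 and 8.54% in HPg and 8.67, 5.96 and 7.20% in the knockout line, where library 2 had the lowest of all 12. The sum of the 3 paralogs was 71.2 ± 4.04 CPM per kb in HPg and 74.5 ± 5.78 in the knockout line without PMA, and 76.0 ± 4.05 and 73.6 ± 8.87 with PMA, differences smaller than the spread. Shares have no test here, and no share of all genes can be set beside their overlap. By the longest transcript the Cbx3 share becomes 14.5% in HPg and 13.2% in the knockout line without PMA.

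The comparison of the knockout with the HPg line without PMA asks whether the heterochromatin genes differ under normal growth. None of the 10 passed (adjusted p under 0.05, edgeR quasi-likelihood test), where 1.32% of all genes tested did. Their median log2 fold change was -0.07, against 0.01 over all genes, and 3 of 10 were above 0. Suv39h2, one of the enzymes of pericentric H3K9 trimethylation, had the largest difference. It was at 13.4, 11.3 and 12.8 CPM in HPg and at 9.43, 9.86 and 9.70 CPM in the knockout line. Every knockout library was below every HPg library, as is so, in that direction, for 8.95% of all genes. The log2 fold change was -0.38 ± 0.176 (interval -0.76 to 0.01), or 0.771 times the HPg level, with an adjusted p of 0.359. Of the 4410 exonic bases of Suv39h2, 357 are shared with Dclre1c on the opposite strand, and their part in this value was not tested. With the replicate number as a block in the fit, Suv39h2 was at -0.37 (interval -0.65 to -0.085). That interval leaves out 0, but the adjusted p of 0.0854 did not pass. Its partner enzyme Suv39h1 was at 40.3, 27.8 and 35.2 CPM in HPg and 34.9, 26.7 and 30.8 in the knockout line, which overlap, and its log2 fold change was -0.16 (adjusted p = 0.741).

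For the other members without PMA the groups overlapped. Among the HP1 genes the log2 fold change was -0.06 for Cbx1 (interval -0.32 to 0.20) and 0.12 for Cbx5 (interval -0.20 to 0.44). Setdb1 was at -0.02 with an interval of -0.24 to 0.20, the narrowest of the group. Ehmt1 was at -0.17 (-0.50 to 0.15) and Ehmt2, its partner in the dimer, at -0.19 (-0.63 to 0.25). Trim28 was at 0.13 (-0.25 to 0.50) and Kmt5c at 0.23 (-0.14 to 0.59). Without the untreated knockout library 1 the Trim28 value turned to -0.05. Differences inside these intervals stay compatible with the data in the fit without the block.

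**Figure D2:**
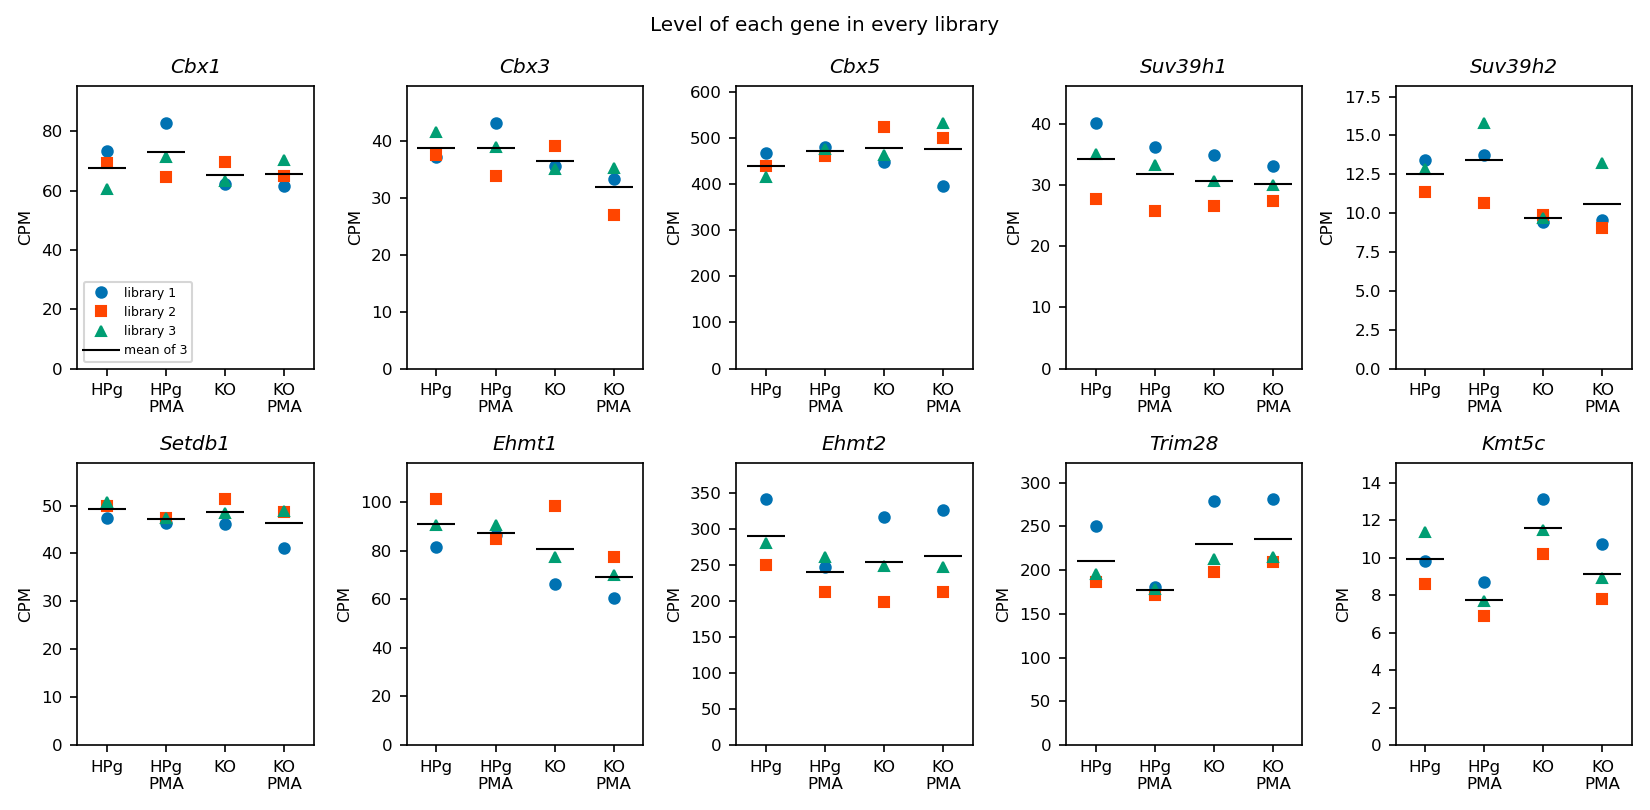
CPM of each of the 10 genes (vertical axis, from 0) in every library of the 4 groups, with symbols for the replicate number and a line at the mean of 3. The untreated Suv39h2 values do not overlap between the lines, with 9.43 to 9.86 CPM in the knockout line and 11.3 to 13.4 CPM in HPg.

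With PMA, none of the 10 passed between the lines, where 2.47% of all genes did. The median of the 10 was -0.05, against 0.01 over all genes. Trim28, which links KRAB zinc finger proteins to SETDB1 and HP1, had the largest difference upward. It was at 181, 171 and 179 CPM in HPg and at 281, 209 and 215 CPM in the knockout line, with every knockout library above every HPg library, as for 12.5% of all genes. The log2 fold change was 0.41 ± 0.172 (interval 0.04 to 0.78), or 1.33 times, adjusted p = 0.228. Libraries with the same replicate number deviated together across the groups, and with that number as a block in the fit the Trim28 value was 0.39 ± 0.0992 and passed, adjusted p = 0.0155. In that blocked fit 18.6% of all genes passed, 9.49% upward.

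Ehmt1 was lower in the knockout line with PMA. Its levels were 86.5, 84.7 and 90.5 CPM in HPg and 60.4, 77.5 and 69.9 CPM in the knockout line. These groups did not overlap, as for 12.4% of all genes in that direction. The log2 fold change was -0.33 ± 0.150 (interval -0.66 to -0.01), or 0.794 times, with an adjusted p of 0.260 in the fit without the block, so it did not pass there. With the replicate block it was -0.35 ± 0.101 and passed with an adjusted p of 0.0306, as 9.09% of all genes did downward. Ehmt2, which encodes the other subunit, had a log2 fold change of 0.12 (interval -0.32 to 0.56) and overlapping groups.

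The remaining members with PMA overlapped between the lines. Suv39h2 was at 13.8, 10.6 and 15.8 CPM in HPg and 9.55, 9.02 and 13.2 CPM in the knockout line, a log2 fold change of -0.34 (interval -0.72 to 0.04, adjusted p = 0.329). With the replicate block it was also -0.34, with an interval that leaves out 0 (-0.62 to -0.056), and did not pass (adjusted p = 0.0882). Kmt5c was at 8.67, 6.87 and 7.70 CPM in HPg and 10.7, 7.81 and 8.89 CPM in the knockout line, at 0.24 (interval -0.13 to 0.60). The value was -0.15 for Cbx1 (-0.41 to 0.11), 0.01 for Cbx5 (-0.31 to 0.33), -0.07 for Suv39h1 (-0.44 to 0.29) and -0.03 for Setdb1 (-0.24 to 0.19). Proliferation genes, counted because several members are linked to S phase, were also low in these comparisons: 11 of 12 without PMA and 12 of 12 with PMA lay below 0, with medians of -0.25 and -0.24, where 51.3% of all genes lay above 0 in each. None of the 12 passed without the block. With it 5 passed downward without PMA, as 5.44% of all genes did, and 3 with PMA, as 9.09% did. Summed, these were 1634 to 2219 CPM in HPg and 1472 to 1773 CPM in the knockout line without PMA, and 1778 to 2366 against 1579 to 1923 with PMA. Their part in the differences of Suv39h2, Ehmt1 and Cbx3 was not tested.

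**Figure D3:**
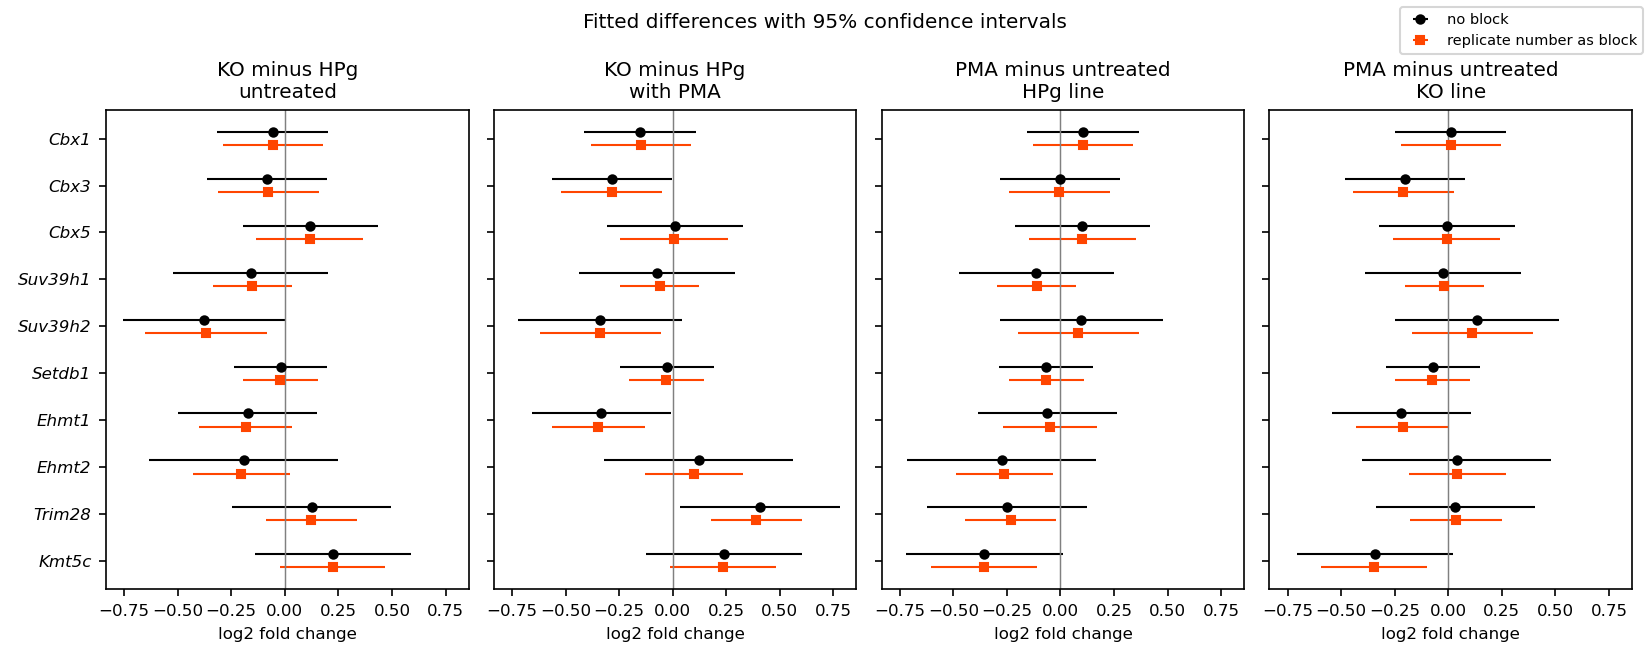
Fitted log2 fold changes (horizontal axis) of the 10 genes with 95% confidence intervals, for the lines without and with PMA and for PMA in each line; black is the fit without and orange-red the fit with the replicate number as a block. Without the block only Cbx3, Ehmt1 and Trim28 with PMA have intervals that leave out 0, and the widest interval is that of Ehmt2.

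Joined by replicate number, the lines give 6 pairs, 3 without and 3 with PMA. Suv39h2 and Ehmt1 were lower in the knockout library in 6 of 6 pairs, and Trim28 and Kmt5c were higher in 6 of 6. Over all genes 29.4% went one way in all 6 pairs, so 4 of 10 is not far from the background. Cbx3, Suv39h1 and Ehmt2 were lower in 5 of 6, Cbx5 was higher in 4 of 6, and Cbx1 and Setdb1 were split 3 to 3. The line difference averaged over both conditions, a contrast added after these values were seen, was -0.36 ± 0.124 for Suv39h2 (adjusted p = 0.0884), -0.25 ± 0.106 for Ehmt1 (0.151 adjusted), 0.27 ± 0.121 for Trim28 (0.186 adjusted) and 0.23 ± 0.119 for Kmt5c (0.242 adjusted), and Cbx3 was at -0.18 ± 0.0912 (0.232 adjusted). None of the 10 passed, against 10.4% of all genes. Without the untreated knockout library 2, Ehmt1 passed (-0.35, adjusted p = 0.0432). Suv39h2 passed without library 2 of HPg with PMA (-0.43, adjusted p = 0.0376) and without library 3 of the knockout line with PMA (-0.46, adjusted p = 0.0370). With the replicate block 4 of 10 passed, against 29.3% of all genes: Suv39h2 at -0.35 (adjusted p = 0.0116), Ehmt1 at -0.26 (adjusted p = 0.0134), Trim28 at 0.26 (adjusted p = 0.0140) and Kmt5c at 0.23 (adjusted p = 0.0480). In this contrast 2 of the 12 proliferation genes passed downward without the block, E2f1 at -0.47 (adjusted p = 0.0186) and Cdk1 at -0.62 (adjusted p = 0.0364), as 4.85% of all genes did. With it 7 of 12 passed downward, as 14.1% of all genes did. Their part in the values of Suv39h2 and Ehmt1 was not tested.

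Treatment for 30 min asks whether these genes respond early to PMA. In HPg cells none of the 10 passed, where 3.45% of all genes did, and in the knockout line none passed, where 4.44% did. Kmt5c was lower with PMA in all 3 numbered pairs of both lines. The share of all genes that do so was not counted, so how unusual this is cannot be said. In HPg it went from 9.80, 8.59 and 11.3 CPM to 8.67, 6.87 and 7.70 CPM, a log2 fold change of -0.36 ± 0.168 (interval -0.72 to 0.01, adjusted p = 0.303). In the knockout line it went from 13.1, 10.2 and 11.5 CPM to 10.7, 7.81 and 8.89 CPM, a log2 fold change of -0.34 ± 0.168 (interval -0.71 to 0.02, adjusted p = 0.352). The untreated and treated groups overlapped in each line. With the replicate block the Kmt5c value was -0.36 in HPg (interval -0.60 to -0.11, adjusted p = 0.0517). In the knockout line it was -0.35 (interval -0.59 to -0.0996, adjusted p = 0.0623). Both intervals leave out 0, and neither value passed. Kmt5c stands near the low end of the group, with 944 to 1613 counts per library.

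Trim28 in HPg cells was at 250, 186 and 195 CPM untreated and 181, 171 and 179 CPM with PMA. These groups do not overlap, as for 10.3% of all genes downward, and the log2 fold change was -0.25 ± 0.171 (interval -0.62 to 0.12, adjusted p = 0.515). With the replicate block the Trim28 value was -0.23 (interval -0.44 to -0.019, adjusted p = 0.135) and did not pass. In the knockout line it was at 279, 197 and 212 CPM and then 281, 209 and 215 CPM, a log2 fold change of 0.03 (interval -0.34 to 0.41). Ehmt2 in HPg was at 342, 250 and 282 CPM and then 248, 213 and 261 CPM, at -0.27 (interval -0.72 to 0.17), and in the knockout line at 0.04 (interval -0.40 to 0.48). With the block the HPg value of Ehmt2 was -0.26 (interval -0.49 to -0.034, adjusted p = 0.116) and did not pass. Cbx3 was at -0.00 in HPg (interval -0.28 to 0.28) and -0.20 in the knockout line (interval -0.48 to 0.08). For Cbx1, Cbx5, Suv39h1, Suv39h2, Setdb1 and Ehmt1 the values ran from -0.11 to 0.11 in HPg and from -0.22 to 0.13 in the knockout line.

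Whether PMA acted differently in the 2 lines was tested as an interaction. Of all genes none passed in edgeR's test, with or without the block, 1 did in DESeq2, and 328 (1.97%) had an unadjusted p under 0.05. Among the members every adjusted p was 1, and the largest values were 0.31 ± 0.287 for Ehmt2 (interval -0.31 to 0.94) and 0.28 ± 0.242 for Trim28 (interval -0.24 to 0.81). Without the block, such intervals leave room for sizeable differences in either direction for these 2 genes. With it they were -0.017 to 0.63 for Ehmt2 and -0.033 to 0.57 for Trim28. These lie mostly above 0, and neither value passed (adjusted p of 0.650 and 0.653).

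Replicate numbers went with the level of several members in all 4 groups. Suv39h1 and Trim28 were highest in library 1 and lowest in library 2 of every group. Ehmt2 and Kmt5c were lowest in library 2 of every group and highest in library 1 of 3 of the 4. Setdb1 was lowest in library 1 of every group, and Ehmt1 was lowest in library 1 and highest in library 2 of 3 groups. As deviations from the group means over the 12 libraries, Ehmt2 and Trim28 correlated at 0.937 and Suv39h1 and Ehmt2 at 0.851, whereas Ehmt1 and Ehmt2 were at -0.895 and Setdb1 and Trim28 at -0.879. These coefficients are among the strongest of the member pairs, describe 12 libraries that share their numbers, and carry no test. Over all genes that passed the filter, same-numbered libraries also deviated together (r of 0.159 to 0.558). The share of all genes with such a pattern was not counted, so it is not shown to be particular to these members. In the longest protein-coding transcript, GC content is 60.8% for Ehmt2, 60.0% for Kmt5c and 59.6% for Trim28, the 3 highest of the group. It is 51.2% for Ehmt1, 49.4% for Setdb1 and 50.0% for Suv39h1. The part of GC content in the pattern was not tested, and the labels do not say what a number stands for.

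**Figure D4:**
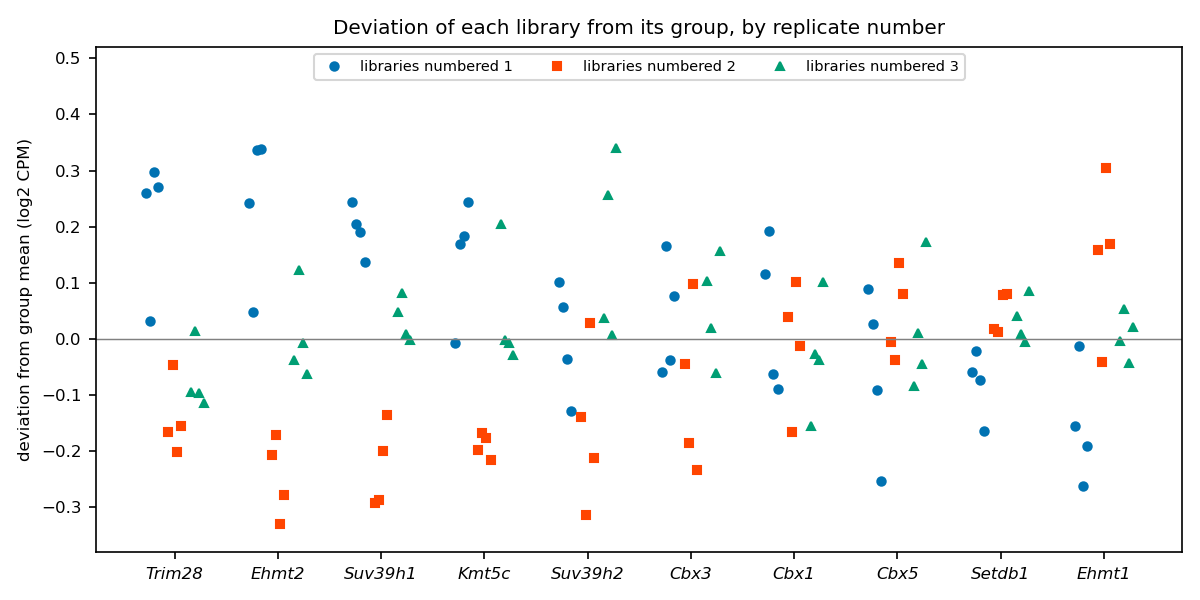
Deviation of each library from the mean of its group (vertical axis, log2 CPM) for each gene, with colour and symbol for the replicate number. For Trim28 and Suv39h1 all 4 libraries numbered 1 are above 0 and all 4 numbered 2 are below it, and for Setdb1 all 4 numbered 1 are below it.

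Other genes of the pathway came from 4 lists: partners of the H3K9 methyltransferases with the HUSH silencing complex, H3K9 demethylases, H4K20 methylation, and HP1 partners with other heterochromatin factors. Of the 46 listed genes, 45 were tested, and Adnp was listed at 0 in all libraries. That 0 does not tell a gene without RNA from one lost in the counting, which was not tested. Without PMA none of the 45 passed between the lines, 23 were above 0 and their median was 0.00. The blocked fit called 1 of them higher and 1 lower, where 1178 and 905 of the 16630 genes tested were called. With PMA none passed, 15 of 45 were above 0 and the median was -0.16, against 0.01 over all genes. The blocked fit called 1 higher and 8 lower there, where 9.49% and 9.09% of all genes were called. In each line comparison the following genes had the smallest unadjusted p of their list.

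Among the partners without PMA these were Fam208a (TASOR) at 0.30 and Mphosph8 (MPP8) at 0.28, both subunits of HUSH, with adjusted p of 0.245 and 0.396. With PMA they were Atf7ip, the partner that stabilises SETDB1, at -0.30 (adjusted p = 0.227, and 0.044 with the replicate block) and Zfp644 at -0.20 (adjusted p = 0.563). For the demethylases without PMA, Kdm1a (LSD1) was at -0.17 and Kdm3a at -0.19 (adjusted p of 0.472 and 0.602). With PMA, Jmjd1c was at -0.54 (adjusted p = 0.102) and Kdm3a at -0.41 (adjusted p = 0.149), and these passed with the block at 0.00872 and 0.00825. In the H4K20 list, Kmt5a, the monomethylase, was at -0.23 without and -0.28 with PMA (adjusted p of 0.481 and 0.279). Kmt5b, the paralog of Kmt5c, was at 0.23 without PMA (adjusted p = 0.526) and 0.03 with it, and Phf20 at -0.22 with PMA (adjusted p = 0.313). Among the heterochromatin factors, Sgo1 (shugoshin) was at -0.39 and Uhrf1 at -0.33 without PMA (adjusted p of 0.398 and 0.419), and Sgo1 passed with the block at 0.0299. With PMA, Smarcad1 was at -0.45 (adjusted p = 0.0727) and Psip1 at -0.60 (adjusted p = 0.165), and these passed with the block at 0.00729 and 0.00357. Prdm16 had the largest difference upward, 0.90 without and 0.84 with PMA. Its standard error was 0.769, with untreated HPg libraries at 4.86, 40.7 and 13.8 CPM, highest in library 2. It did not pass (adjusted p of 0.671 and 0.613) until the number entered as a block (0.97 with PMA, adjusted p = 0.00357).

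**Figure D5:**
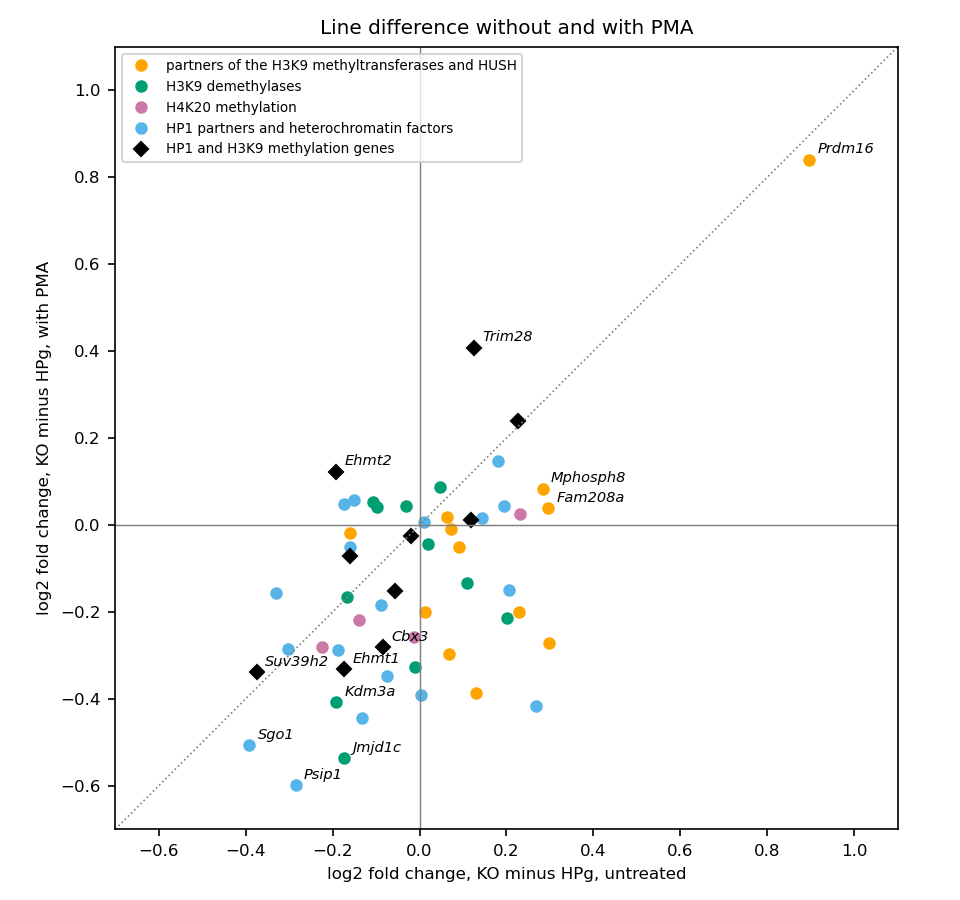
Log2 fold change between the lines (knockout minus HPg) without PMA (horizontal) and with PMA (vertical) for the 10 genes (diamonds) and the 45 tested pathway genes (circles, coloured by list); the dotted line marks equal values. No point passed without the block; 4 of the 10 genes are above 0 with PMA and 15 of the 45 pathway genes are.

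Of the 45 pathway genes, 2 passed with PMA in the knockout line, a share near the 4.44% of all genes that passed in either direction. Both went down, as did 271 of the 16630 genes tested. Kdm4d, a demethylase of H3K9 di- and trimethylation, went from 2.5, 2.84 and 2.98 CPM to 1.37, 1.23 and 0.855 CPM, a log2 fold change of -1.27 ± 0.251 (adjusted p = 0.0134). In HPg cells it went from 2.35, 2.48 and 2.41 CPM to 1.73, 1.30 and 0.979 CPM, at -0.85 (adjusted p = 0.0893, and 0.018 with the replicate block). The groups did not overlap in either line, as for 10.3% of all genes downward in HPg and 11.3% in the knockout line, and the interaction was -0.42 with an adjusted p of 1. Atf7ip went from 57.4, 75.7 and 69.0 CPM to 41.7, 48.5 and 44.8 CPM in the knockout line, a log2 fold change of -0.58 ± 0.125 (adjusted p = 0.0195). In HPg it was at -0.22 (adjusted p = 0.406) and its interaction at -0.36 (adjusted p of 1), so a difference between the lines did not pass. The Kdm4d call in the knockout line was lost without untreated library 3 (-1.21, adjusted p = 0.0658) or treated library 3 (-1.09, adjusted p = 0.0662). The Atf7ip call was lost without untreated library 2 (-0.48, adjusted p = 0.0918), untreated library 3 (-0.57, adjusted p = 0.0891), treated library 1 (-0.52, adjusted p = 0.0616) or treated library 3 (-0.57, adjusted p = 0.0737), and with the 2 groups alone (adjusted p = 0.0662). Of the 45 genes, 21 (46.7%) were above 0 with PMA in the knockout line (median -0.02), where 47.7% of all genes were (median -0.02). In HPg 32 (71.1%) were above 0 (median 0.13), where 47.2% of all genes were (median -0.02). None of the 45 passed in HPg without the block, and 7 passed upward and 2 downward with it, against 8.62% and 6.19% of all genes.

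Of the 10 genes, 4 start within 2000 bases of a gene read in the opposite direction. Hnrnpa2b1 and Hnrnpa1, which encode RNA-binding proteins, start 466 bases from Cbx3 and 616 bases from Cbx5. The complement gene C2 starts 204 bases from Ehmt2, and Slc27a5 starts 922 bases from Trim28. Hnrnpa2b1 was at 214.8 ± 41.8 CPM (SD, n = 3) in untreated HPg and 194 ± 7.26 CPM in untreated knockout cells, a log2 fold change of -0.15 (adjusted p = 0.803). With PMA the line difference was -0.36 (adjusted p = 0.343), beside -0.28 for Cbx3. With PMA in HPg cells Hnrnpa2b1 was at 0.48 (adjusted p = 0.204, and 0.0141 with the replicate block), beside -0.00 for Cbx3. Hnrnpa1 had line differences of 0.15 and 0.02, beside 0.12 and 0.01 for Cbx5. For C2, at 61 to 174 counts, they were -0.44 without and -0.65 with PMA, beside -0.19 and 0.12 for Ehmt2. Slc27a5 had only 1 to 26 counts in a library, with line differences of -0.90 ± 0.994 and 1.47 ± 1.08, beside 0.13 and 0.41 for Trim28. None of these neighbours passed without the block.

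The 5 named genes whose log2 CPM was most like that of Cbx3 over the 12 libraries, among 13739 compared, were Cntln (r = 0.956), Dclre1c (0.942), Gcc2 (0.920), Cep290 (0.918) and Cep192 (0.916). Chosen by this likeness, they also shared with Cbx3 the group of lowest mean, the knockout line with PMA, which is no separate observation. Cntln was at 55.0 ± 5.07 CPM in untreated HPg and 40.8 ± 6.17 CPM in that group, and Cep290 at 20.9 ± 5.32 and 11.1 ± 4.01 CPM. The points share their libraries and replicate numbers, and the coefficients are a description without a test. Dclre1c shares 357 exonic bases, on the opposite strand, with Suv39h2, which has 4410. The counts per library were 898 to 2055 for Dclre1c and 1052 to 2128 for Suv39h2. Since the labels do not state the strand setting of the counting, reads over shared bases cannot be assigned with certainty. The same holds for 767 of the 5270 exonic bases of Suv39h1, shared with the antisense gene Gm14820 at 10 to 131 counts. It holds too for 75 bases that Setdb1, at 4719 to 7488 counts, shares with Cers2 at 11085 to 19469 counts.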

How the data were processed

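Total RNA without ribosomal RNA gave strand-specific, paired-end libraries, per the labels' protocols. The authors deposited raw counts per gene, whole numbers that were not normalized. The submitters' processing notes name build mm9 and, as tools, Subread, featureCounts 1.4.6-p3, STAR 2.5.0a and cutadapt 1.11. Neither the annotation release nor the strand setting, nor the counting of reads or of fragments, is stated there (not given in the sources used here). Symbols, exon lengths, overlaps and neighbours came from GENCODE M21 on GRCm38 (32620 of 37310 genes matched), so no gene coordinates are printed apart from the RefSeq promoter stretches. Copies were searched with blastn 2.17.0+.

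From the deposited counts, CPM were computed with TMM factors. All 12 libraries entered 1 edgeR 4.0.16 fit (R 4.3.3, limma 3.58.1; robust quasi-likelihood F-test, filterByExpr with a minimum count of 10 and total of 15, a coefficient per group), with Benjamini-Hochberg adjustment over 16630 genes and calls under 0.05. The standard error is the log2 fold change over the root of F. An exact permutation test of 3 against 3 cannot go below 0.1, so none was used. Replicate numbers come from the labels. After each group's mean was removed, the 18 pairs of libraries with the same number correlated at 0.159 to 0.558 and the 36 other pairs at -0.517 to 0.163, so the numbers were taken to pair the samples. The blocked fit is printed where a call depends on it. It is also printed for members in a comparison of 2 groups where only its interval leaves out 0, and for the 2 largest interactions of members. Named are all 10 members; from each pathway list the genes called (at most 4), or the 2 with the smallest p between the lines where none was; and the 5 genes most like Cbx3. Outside that rule, Prdm16, E2f1, Cdk1 and the genes neighbouring the members were picked once their values were known. Members and lists were chosen with earlier results of these data known. Alternatives were other scalings and filters, DESeq2 1.42.0, the groups of a comparison alone, the block, another length and leaving out each library. The line difference averaged over both conditions was added after seeing the data.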

Additional observations from a re-analysis of the deposited data

Results flagged for a closer look

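Trim28 was lower with PMA in every numbered pair of HPg and slightly higher in every pair of the knockout line. It was found by searching the members for opposite directions in all pairs of the lines. The share of all genes that meet this rule was not counted. The mean log2 ratio of treated to untreated CPM over the 3 numbered pairs was -0.237 in HPg, with all 3 pairs lower, and 0.0369 in the knockout line, with all 3 pairs higher. The direction in the knockout line does not hold: its fitted value of 0.03 (interval -0.34 to 0.41) turned to -0.090 by library size, to -0.016 by upper quartile, and to -0.056, -0.020 and -0.108 without untreated library 2, untreated library 3 or treated library 1. The test of the difference itself, the interaction in edgeR, gave 0.28 ± 0.242 with an adjusted p of 1, and 0.653 with the replicate block. The treated HPg libraries lay between 171 and 181 CPM, whereas untreated HPg library 1 stood at 250 CPM beside 186 and 195 CPM for the other two.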

How the results depend on the processing

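The 60 member results (10 genes in 5 comparisons and the added mean of both conditions) were recomputed under up to 8 settings. Of 450 values, 421 kept their direction and their side of the threshold, 6 passed only with the replicate block and 23 changed sign. The numbers pair the samples, so the block is the relevant other fit: it raised the count of genes called to 2083 without PMA, 3090 with PMA, 2462 for PMA in HPg, 2221 for PMA in the knockout line and 4869 for the mean of both conditions (main counts 219, 411, 574, 739 and 1733). Beyond the calls given in the report it changed no other call of a member. DESeq2 called 775, 1184, 1212 and 1279 genes in the first 4 and 1 in the interaction. With the groups of a comparison alone, 12 genes passed without PMA and 222 for PMA in HPg. Leaving out single libraries gave 46 to 329 genes without PMA, 60 to 573 with PMA, 244 to 332 for PMA in HPg, 295 to 604 for PMA in the knockout line, 0 to 1 for the interaction and 909 to 2210 for the mean. The lowest count came without library 3 of untreated KO (46, 295 and 909), of treated HPg (60) or of untreated HPg (244). By the longest transcript the Cbx3 share was 14.5, 13.5, 13.2 and 11.8% in HPg, HPg with PMA, KO and KO with PMA.

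Scaling moved the split of calls: with PMA between the lines 215 higher and 196 lower became 163 and 217 by library size and 270 and 129 by upper quartile; PMA in HPg went from 421 and 153 to 316 and 193 (upper quartile); PMA in KO from 468 and 271 to 307 and 424 and to 410 and 349. Library size alone shifted the median of all genes by -0.125 for PMA in KO. No scaling turned the line difference of Suv39h2, Ehmt1, Trim28 or Kmt5c. The values that changed sign were all near 0. By library size they were -0.075, -0.00311 and -0.050 for the interactions of Kmt5c, Suv39h1 and Suv39h2, -0.058 for Cbx5 between the lines with PMA, and -0.116, -0.085 and -0.090 for Cbx1, Ehmt2 and Trim28 with PMA in KO. By upper quartile they were 0.020 and 0.017 for Setdb1 in the interaction and without PMA, 0.037 for Setdb1 with PMA, 0.023 and 0.027 for Ehmt2 and Setdb1 in the mean, and -0.038, -0.010 and -0.016 for Cbx1, Ehmt2 and Trim28 with PMA in KO. A filter of 1 CPM gave 0.00842 for Setdb1 in the interaction. With no filter Cbx5 between the lines with PMA was at -0.00716, and Cbx3 with PMA in HPg at 0.00456. That Cbx3 value was 0.00308 by DESeq2's size factors, 0.00306 in DESeq2 and 0.00132 with its groups alone, and Cbx5 with PMA in KO was 0.00167 and 0.00166 in the first pair of these. The cause was not tested.

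Without single libraries, 426 of 480 values held, 3 passed and 51 changed sign, with these ranges. Between the lines without PMA they were -0.14 to 0.0020 for Cbx1, -0.069 to 0.0033 for Setdb1 and -0.051 to 0.27 for Trim28. Between the lines with PMA they were -0.081 to 0.12 for Cbx5, -0.068 to 0.25 for Ehmt2, -0.071 to 0.050 for Setdb1 and -0.21 to 0.024 for Suv39h1. For PMA in HPg they were -0.080 to 0.091 for Cbx3, -0.13 to 0.022 for Ehmt1, -0.24 to 0.024 for Suv39h1 and -0.034 to 0.24 for Suv39h2. For PMA in KO they were -0.034 to 0.072 for Cbx1, -0.086 to 0.12 for Cbx5, -0.14 to 0.23 for Ehmt2, -0.11 to 0.014 for Setdb1, -0.11 to 0.085 for Suv39h1, -0.051 to 0.24 for Suv39h2 and -0.11 to 0.21 for Trim28. In the interaction they were -0.17 to 0.0075 for Cbx1, -0.19 to 0.013 for Cbx5, -0.27 to 0.011 for Ehmt1, -0.12 to 0.12 for Kmt5c, -0.046 to 0.077 for Setdb1, -0.042 to 0.22 for Suv39h1 and -0.15 to 0.17 for Suv39h2. In the mean of both conditions they were -0.35 to -0.20 for Ehmt1, -0.14 to 0.031 for Ehmt2, -0.051 to 0.011 for Setdb1 and -0.46 to -0.30 for Suv39h2. The depth of 111458145 to 159929347 counts was not thinned, so how far it limits these comparisons was not tested.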
